A study of Rattus norvegicus with 4 samples.

Results

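The enzymes that bring pyruvate into the mitochondrion and turn the tricarboxylic acid (TCA) cycle were followed in RNA of rat carotid bodies (CBs), small chemosensory organs beside the carotid arteries in which glomus cells respond to low oxygen. The members were chosen by gene name from a fixed list of 32, and 30 of the 32883 genes in the data carry such a name. Ogdh and Pcx were not found under these names and are not counted, although pyruvate carboxylase is present under its current symbol Pc and is described on its own. All 30 passed the filter of 1 CPM (counts scaled to library size) in at least 2 libraries. CBs of Sprague Dawley rats with no treatment between the groups were taken at day 5 (neonates) and at day 21 (adults, the part of the litter left to grow), and 2 libraries per age were sequenced, 4 in all. Each was made from CBs pooled from several animals, 6 pups or 3 adults per library by the sample descriptions, and the study's text gives other pool sizes and more replicates than the libraries analysed here. Females and males were not kept apart.

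Pyruvate made by glycolysis enters the mitochondrion through the mitochondrial pyruvate carrier and is then either decarboxylated to acetyl-CoA by the pyruvate dehydrogenase complex or carboxylated to oxaloacetate by pyruvate carboxylase. Pyruvate dehydrogenase kinases switch the complex off by phosphorylation and the matching phosphatases switch it on again. The TCA cycle then oxidizes acetyl-CoA and hands electrons to the respiratory chain, whose activity has been linked to oxygen sensing in glomus cells.

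The members with the largest changes in either direction were the kinase Pdk4, the phosphatase Pdp2, the kinase Pdk2, the malic enzyme Me1, the carrier subunit Mpc2 and the citrate synthase gene Cs. Upstream sequences are shown for these genes other than Pdp2, and for Mpc1, the partner of Mpc2, so that members that moved in opposite directions can be set side by side. They were chosen after the values and most of the sequences had been seen. The 250 bases before the RefSeq start of each gene are given in the build GRCr8, on the strand of the gene, with CCAAT or its reverse complement ATTGG in capitals. They lie at chr4:34568330-34568579 (minus strand) for Pdk4, chr10:80483913-80484162 (minus strand) for Pdk2, chr8:96540245-96540494 (minus strand) for Me1, chr13:80261006-80261255 (plus strand) for Mpc2, chr7:1348139-1348388 (plus strand) for Cs and chr1:54996959-54997208 (minus strand) for Mpc1.
Pdk4: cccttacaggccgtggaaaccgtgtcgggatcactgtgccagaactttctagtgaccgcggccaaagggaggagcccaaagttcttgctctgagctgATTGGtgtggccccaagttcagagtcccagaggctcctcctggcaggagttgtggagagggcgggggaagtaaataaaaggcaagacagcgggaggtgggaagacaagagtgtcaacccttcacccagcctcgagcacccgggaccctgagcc
Pdk2: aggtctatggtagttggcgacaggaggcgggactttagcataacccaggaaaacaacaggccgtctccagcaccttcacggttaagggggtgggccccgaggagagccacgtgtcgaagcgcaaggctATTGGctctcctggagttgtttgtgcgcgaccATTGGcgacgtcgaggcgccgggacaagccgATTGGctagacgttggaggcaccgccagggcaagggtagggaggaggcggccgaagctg
Me1: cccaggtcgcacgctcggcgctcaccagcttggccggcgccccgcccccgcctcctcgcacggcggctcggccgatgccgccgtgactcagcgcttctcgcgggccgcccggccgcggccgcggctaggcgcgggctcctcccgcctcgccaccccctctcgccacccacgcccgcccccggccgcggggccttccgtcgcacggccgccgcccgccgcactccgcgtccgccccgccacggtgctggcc
Mpc2: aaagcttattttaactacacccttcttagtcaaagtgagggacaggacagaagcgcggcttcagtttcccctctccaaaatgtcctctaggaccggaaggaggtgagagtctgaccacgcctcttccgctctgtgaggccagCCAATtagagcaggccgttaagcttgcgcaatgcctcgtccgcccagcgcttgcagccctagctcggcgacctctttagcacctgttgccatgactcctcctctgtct
Cs: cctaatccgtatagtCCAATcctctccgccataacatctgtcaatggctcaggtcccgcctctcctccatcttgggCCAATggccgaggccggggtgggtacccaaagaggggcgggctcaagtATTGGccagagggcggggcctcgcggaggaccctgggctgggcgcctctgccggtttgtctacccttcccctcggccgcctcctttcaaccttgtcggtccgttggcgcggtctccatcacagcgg
Mpc1: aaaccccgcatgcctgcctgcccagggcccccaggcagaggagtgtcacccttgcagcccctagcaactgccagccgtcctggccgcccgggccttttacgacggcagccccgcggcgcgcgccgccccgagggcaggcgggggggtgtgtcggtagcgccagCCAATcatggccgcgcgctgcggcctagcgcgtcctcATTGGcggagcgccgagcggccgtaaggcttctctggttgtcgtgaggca

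Mpc1 holds 2 such boxes, which begin 87 and 50 bases before the start, and Mpc2 holds 1, at 108 bases. Pdk2 and Cs hold 3 each, Pdk4 holds 1 and Me1 holds none. Of the 27 members with an entry in the RefSeq promoter table, 14 had CCAAT on either strand of this window, or 51.9%, against 34.0% of all 33469 promoters listed. The letters ACGTG, the core of the element bound by hypoxia-inducible factors, were found on either strand in 5 of the 27 (18.5%; 16.6% of all promoters). They stood upstream of Idh3g, Pdhb, Dlat, Pdk2 and Pdk3. The letters TGCGCA, the core of sites for the factor NRF1, stood on either strand upstream of Dld and Mpc2 (7.41% of the 27; 6.14% of all promoters). AAGGTCA, a half-site of estrogen-related receptors, was in none of these 27 windows and in 3.99% of all promoters. Members were counted once each and all passed the expression filter. The promoters listed were counted by entry and not limited to genes tested, so the shares come from unlike sets. Whether the members differ from other expressed genes was not tested. These matches are descriptions of letters and say nothing of binding.

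Between the ages, 9 members were higher in neonates, 7 were lower (4 without neonate replicate 2) and 14 did not pass, at an adjusted p under 0.05 by the quasi-likelihood test of edgeR, adjusted by Benjamini-Hochberg over the 13843 genes tested. Among all genes tested 31.2% were higher and 31.1% lower in neonates by this rule, so that the share of members called was no larger than the background of 62.3%. At the study's threshold, which adds a fold change of at least 2, Pdk4 and Pdp2 were lower in neonates, where 13.2% of all genes were. No member was higher at that threshold in edgeR, in DESeq2 or in limma-voom, nor was any at an unadjusted p under 0.05 (0 in each), against 7.68% of all genes in edgeR. The median log2 fold change, neonate over adult, was 0.087 for the members and -0.0029 for all genes. Levels of the ages did not overlap in 22 of the 30 members, against 83.0% of all genes tested.

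How libraries were scaled mattered for small changes. TMM factors, which set libraries on a scale that most genes share, ran from 0.902 to 0.935 in neonates and from 1.08 to 1.10 in adults. With library size alone, the median of all genes moved to -0.25, and 5 members were higher and 10 lower in neonates, where 18.7% and 43.3% of all genes were. Idh3a (-0.29), Sucla2 (-0.29) and Pdhx (-0.30) passed as lower on that scale and not on the TMM scale. Totals ran from 36286191 to 39476110 estimated counts per library. Markers of blood cells and of dividing cells were higher in neonates, with 4 of 4 and 6 of 6 genes tested, where 31.2% of all genes were. The blood markers summed to 7043 and 3968 CPM in neonates and to 1465 and 1314 CPM in adults, and those of dividing cells to 582 and 498 CPM against 130.4 and 132.6 CPM. Parathyroid markers summed to 1796 and 212 CPM in the neonatal libraries and to 0.0245 and 0.0504 CPM in the adult ones. All 10 glomus cell markers listed were tested, of which 3 were higher and 3 lower in neonates (2 of these at 2-fold). Among all genes tested 31.2% were higher, 31.1% lower and 13.2% lower at 2-fold. Levels of 7 of these markers did not overlap between ages, against 83.0% of all genes tested. The sum of all 10 did overlap, at 5756 and 4392 CPM in neonates and 5533 and 4581 CPM in adults. The part of these cells in the changes below was not tested, and in such bulk RNA fewer cells of a type cannot be told apart from less RNA per cell.

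**Figure D1:**
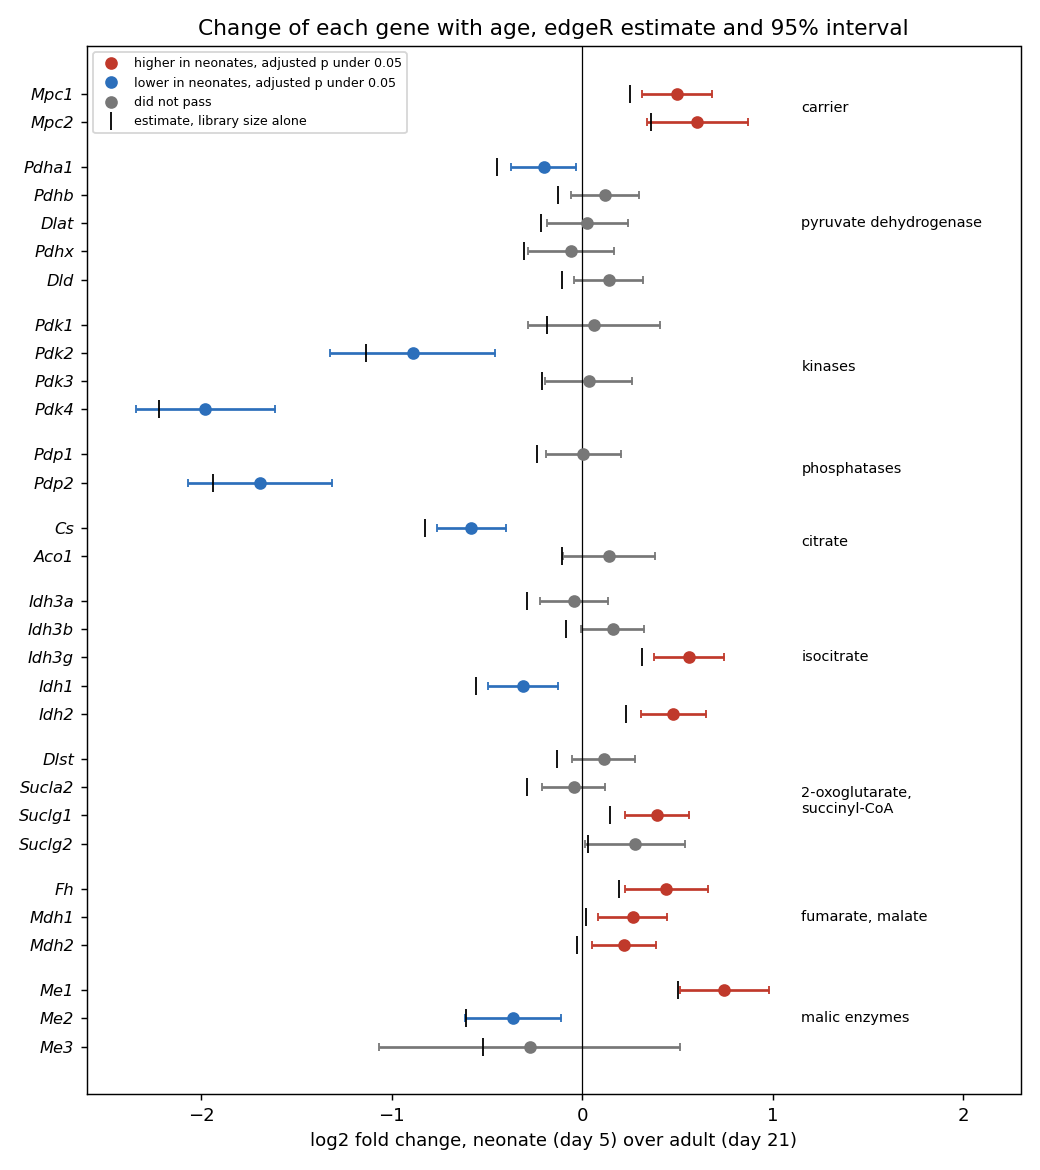
Log2 fold change (neonate over adult) of each of the 30 genes on the horizontal axis, grouped by role, with its 95% interval from edgeR. Red and blue points passed an adjusted p of 0.05, grey points did not, and a black tick marks the estimate with library size alone, which sits to the left of every point. Pdk4 and Pdp2 lie farthest from 0, at -1.98 and -1.69.

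Both subunits of the mitochondrial pyruvate carrier, which work as a heterodimer in the inner membrane, rose together in neonates. Mpc1 (ENSRNOG00000012415) had 121 and 115 CPM in the neonatal libraries and 87.5 and 79.5 CPM in the adult ones. Every neonatal library was above every adult one, and the log2 fold change was 0.50 (standard error 0.082, edgeR adjusted p = 0.00075). Mpc2 (ENSRNOG00000003150) had 22.4 and 21.7 CPM in neonates against 15.1 and 14.0 CPM in adults. Its log2 fold change was 0.60 (standard error 0.12, edgeR adjusted p = 0.0018), again with no overlap. The subunits shifted against each other by -0.11 on the log2 scale. Within a library the log2 ratio of Mpc1 to Mpc2 counts was 2.43 and 2.40 in neonates and 2.54 and 2.51 in adults.

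Of the genes for the pyruvate dehydrogenase complex itself, 1 of 5 passed the test, against 62.3% of all genes tested, and its change was small. Pdha1 (ENSRNOG00000025383), the catalytic subunit that carries the phosphorylation sites, had 195 and 196 CPM in neonates and 229 and 221 CPM in adults. It was lower in neonates by the test, with the log2 fold change at -0.20 (standard error 0.075, edgeR adjusted p = 0.040), and lost the call whichever library was left out (edgeR adjusted p from 0.065 to 0.14). Pdha1 has fractional estimated counts, so that the assignment of some of its reads was ambiguous, and its level is uncertain to that extent. Pdhb, the partner of Pdha1, had a log2 fold change of 0.12, with a 95% interval from -0.057 to 0.30. For the acetyltransferase Dlat, also with fractional counts, the interval was -0.19 to 0.24, and for Pdhx, the protein that anchors Dld in the complex, it was -0.28 to 0.16. Dld, the dehydrogenase shared with the 2-oxoglutarate complex, had an interval from -0.043 to 0.32. All of these intervals leave out a change of 2-fold in either direction.

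Kinases and phosphatases of the complex split by isoform. Pdk4 (ENSRNOG00000009565), the kinase known to rise when fatty acids are burned in place of glucose, had the largest change of the 30. It had 5.35 and 6.96 CPM in neonates and 23.4 and 25.2 CPM in adults. Adults were thus 3.94-fold higher, with the log2 fold change at -1.98 (standard error 0.16, edgeR adjusted p = 1.8e-05). Pdk2 (ENSRNOG00000004172), the broadly expressed kinase, had 6.11 and 7.27 CPM in neonates and 13.4 and 11.4 CPM in adults. It was lower in neonates, with the log2 fold change at -0.89 (standard error 0.19, edgeR adjusted p = 0.0033). Both genes were without overlap between ages.

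Pdk1, a known target of hypoxia-inducible factors, had 12.4 and 11.6 CPM in neonates and 11.1 and 11.9 CPM in adults. The libraries of the ages overlapped, and the log2 fold change was 0.062, with an interval from -0.28 to 0.41 (edgeR adjusted p = 0.74). Pdk3 had 25.5 and 24.2 CPM in neonates against 23.5 and 25.0 CPM in adults, with an interval from -0.19 to 0.26. With library size alone the estimates of Pdk1 and Pdk3 turned to -0.18 and -0.21 and did not pass either.

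Pdp2 (ENSRNOG00000012343), the phosphatase isoform that is not stimulated by calcium, moved the same way as Pdk4. Its levels were 6.62 and 5.57 CPM in neonates and 21.3 and 18.1 CPM in adults, and adults were 3.23-fold higher. The log2 fold change was -1.69 (standard error 0.17, edgeR adjusted p = 4.5e-05). Pdp1, the calcium-stimulated isoform, overlapped between ages, with 97.0 and 109 CPM in neonates and 107 and 98.1 CPM in adults. Its interval ran from -0.19 to 0.20, and 1 of its 4 estimated counts is fractional. Pdpr, the regulatory subunit of the phosphatase and not a member, had 2.82 and 2.28 CPM in neonates and 6.70 and 9.85 CPM in adults (log2 fold change -1.70, standard error 0.28, edgeR adjusted p = 0.00074).

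Of 6 white adipocyte markers tested, 4 were lower and 1 was higher in neonates, with log2 fold changes from -2.51 to 0.51. Among all genes tested 31.1% were lower and 31.2% higher. Adipoq, picked from this list after its values were seen, had 2.39 and 1.98 CPM in neonates and 11.7 and 13.2 CPM in adults. The summed level of the whole list overlapped between ages, at 186 and 257 CPM in neonates and 202 and 254 CPM in adults, and Lep did not pass the filter. Smooth muscle markers had 2 of 4 lower and none higher, and summed to 609 and 636 CPM in neonates and 726 and 848 CPM in adults. Those of skeletal muscle had 1 higher and 1 lower of 5 tested and summed to 34.5 and 39.5 CPM against 51.1 and 57.3 CPM. Both of these sums were lower in neonates without overlap, and levels of 83.0% of all genes tested did not overlap either. The skeletal muscle genes tested had log2 fold changes from -1.76 to 1.42. Ckm, Myh1, Myh2, Myh8 and Actn3 of that list were not tested. The part of these cells in the change of Pdk4 was not tested.

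**Figure D2:**
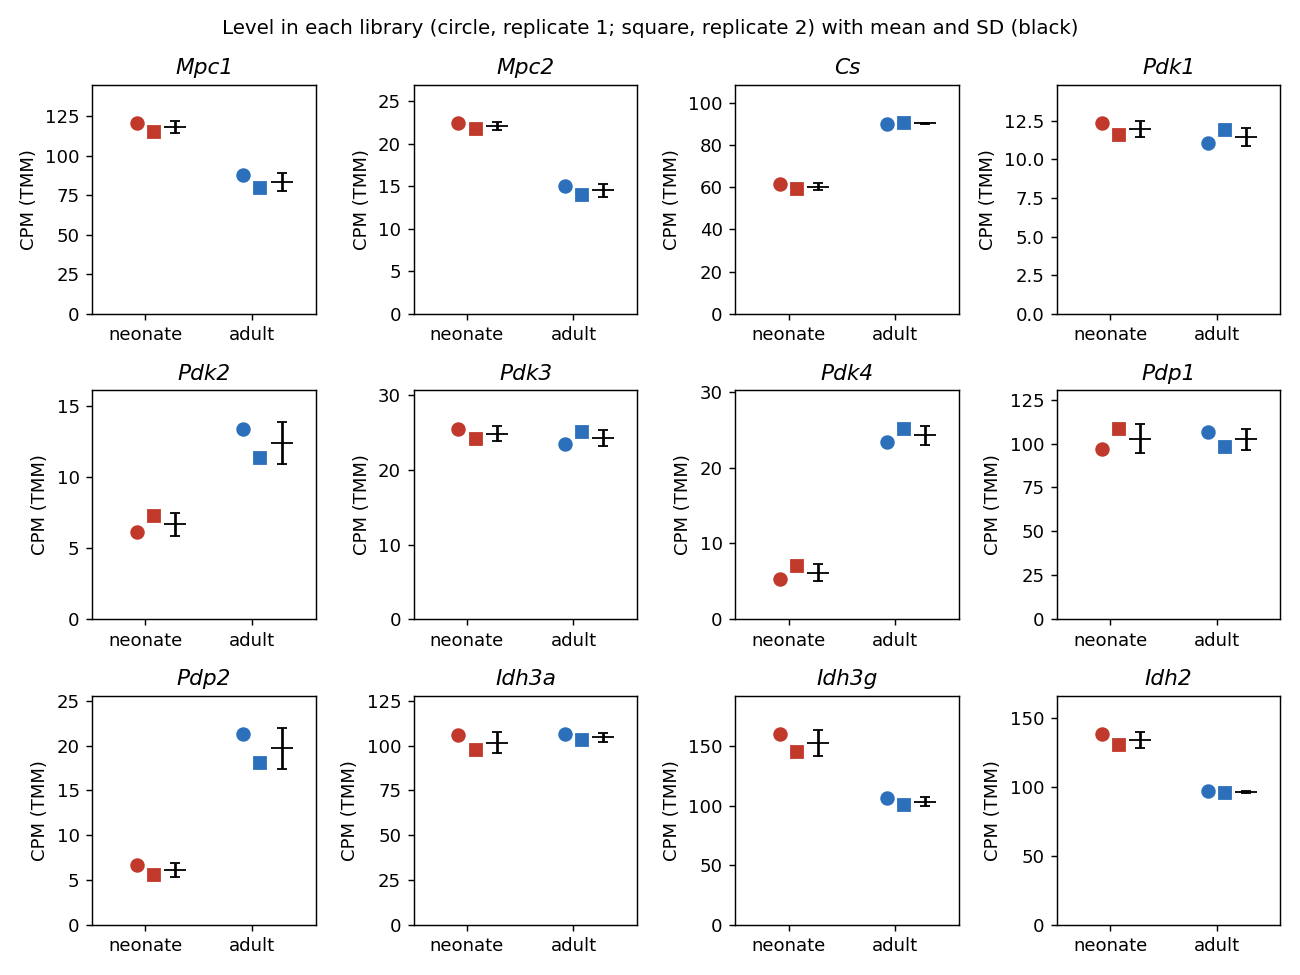
TMM-scaled CPM of 12 genes in each library, neonates in red and adults in blue, with the mean and SD (n = 2) in black and each axis starting at 0. Pdk4, Pdk2, Pdp2 and Cs were lower in both neonatal libraries than in both adult ones, Mpc1, Mpc2, Idh3g and Idh2 were higher, and Pdk1, Pdk3, Pdp1 and Idh3a overlapped.

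RNA of citrate synthase, the enzyme of the entry step of the cycle, was lower in neonates, and the activity of the enzyme was not measured. Cs (ENSRNOG00000023520) had 61.6 and 59.2 CPM in neonates and 90.2 and 90.5 CPM in adults. The log2 fold change was -0.58 (standard error 0.080, edgeR adjusted p = 0.00028), and both neonatal libraries lay below both adult ones. Aco1, the cytosolic aconitase that doubles as an iron-regulatory protein, had 77.9 and 63.9 CPM in neonates and 65.0 and 63.7 CPM in adults. It did not pass (log2 fold change 0.14, edgeR adjusted p = 0.27) except without neonate replicate 2, where its log2 fold change was 0.28 (edgeR adjusted p = 0.029).

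The subunits of NAD-dependent isocitrate dehydrogenase, the rate-controlling enzyme of the cycle, did not move as 1 unit. The catalytic subunit Idh3a had 106 and 97.8 CPM in neonates and 107 and 103 CPM in adults, and its levels overlapped (log2 fold change -0.042, edgeR adjusted p = 0.66). The regulatory subunit Idh3g (ENSRNOG00000055572) had 160.2 and 145 CPM in neonates and 106 and 101 CPM in adults. It rose in neonates, with the log2 fold change at 0.56 (standard error 0.081, edgeR adjusted p = 0.00037). The other regulatory subunit, Idh3b, lay between at 0.16 and did not pass (edgeR adjusted p = 0.085). The log2 ratio of Idh3g to Idh3a counts was 0.60 and 0.57 in the neonatal libraries and -0.0063 and -0.031 in the adult ones, a difference of 0.60.

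The NADP-dependent isocitrate dehydrogenases went in opposite directions. Idh2 (ENSRNOG00000013949), the mitochondrial enzyme, had 138 and 130.1 CPM in neonates and 96.9 and 95.7 CPM in adults (log2 fold change 0.48, standard error 0.075, edgeR adjusted p = 0.00057). Idh1 (ENSRNOG00000015020), the enzyme of the cytosol and peroxisomes, had 93.8 and 84.3 CPM in neonates and 110.3 and 110.4 CPM in adults. It was lower in neonates at -0.31 (standard error 0.082, edgeR adjusted p = 0.0094), and without neonate replicate 2 it was at -0.23 and did not pass (edgeR adjusted p = 0.074). The log2 ratio of Idh1 to Idh2 counts was -0.56 and -0.63 in neonates and 0.19 and 0.21 in adults.

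In the steps from 2-oxoglutarate to succinate, Suclg1 passed the test. Suclg1 (ENSRNOG00000005587), the subunit common to both succinyl-CoA ligases, had 141 and 149 CPM in neonates and 113 and 109 CPM in adults. Its log2 fold change was 0.39 (standard error 0.075, edgeR adjusted p = 0.0018), and 0.15 with library size alone, where it did not pass (edgeR adjusted p = 0.15). Suclg2, the partner that makes the enzyme form GTP, had 77.5 and 78.1 CPM in neonates but 56.4 and 72.0 CPM in adults. The adult libraries differed widely, and its log2 fold change was 0.28 (edgeR adjusted p = 0.063), 0.46 without adult replicate 2 (edgeR adjusted p = 0.0081). With the replicate number as a block edgeR gave it an adjusted p of 0.011, and limma-voom gave 0.048. Sucla2, the partner of the ATP-forming enzyme, had an interval from -0.21 to 0.12, and Dlst, the core of the 2-oxoglutarate complex, one from -0.056 to 0.28.

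Fumarase and both malate dehydrogenases rose in neonates, by less than 1.5-fold each. Fh (ENSRNOG00000003653) had 79.6 and 69.2 CPM in neonates and 55.0 and 54.4 CPM in adults (log2 fold change 0.44, standard error 0.096, edgeR adjusted p = 0.0034). Mdh1 (ENSRNOG00000008103), the cytosolic enzyme of the malate-aspartate shuttle, had 339 and 328 CPM in neonates and 284 and 272 CPM in adults, at 0.27 (standard error 0.080, edgeR adjusted p = 0.017). Mdh2 (ENSRNOG00000001440), the cycle's own enzyme, had 227 and 229 CPM against 199 and 193 CPM, at 0.22 (standard error 0.075, edgeR adjusted p = 0.029). The small changes were the less firm ones. With library size alone Fh was at 0.20, Mdh1 at 0.020 and Mdh2 at -0.025, and none of them passed (edgeR adjusted p of 0.097, 0.84 and 0.80). Leaving out any library ended the call of Mdh2 (edgeR adjusted p from 0.056 to 0.11), as did testing without a filter on low counts (0.069). Leaving out neonate replicate 1 or adult replicate 2 ended the call of Mdh1 (0.072 and 0.077).

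Malic enzymes, which turn malate back into pyruvate, also went in opposite directions. Me1 (ENSRNOG00000009715), the cytosolic source of NADPH for lipid synthesis, had the largest change toward neonates of the 30. Its levels were 77.6 and 77.8 CPM in neonates and 50.4 and 42.3 CPM in adults (log2 fold change 0.75, standard error 0.10, edgeR adjusted p = 0.00027), or 1.68-fold higher in neonates. Me2 (ENSRNOG00000015582), the mitochondrial NAD-dependent enzyme, had 16.8 and 16.7 CPM in neonates and 22.0 and 21.1 CPM in adults. It was lower in neonates at -0.36 (standard error 0.11, edgeR adjusted p = 0.018), but did not pass without neonate replicate 2 (0.059), adult replicate 1 (0.096) or adult replicate 2 (0.056). Me3 was close to the filter, between 1.32 and 1.86 CPM in all libraries, and its interval from -1.07 to 0.51 allows a 2-fold change toward adults. Pyruvate carboxylase, found as Pc, had 353 and 322 CPM in neonates and 432 and 340.3 CPM in adults. It did not pass (log2 fold change -0.19, edgeR adjusted p = 0.18) and has fractional estimated counts.

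Ratios within a library do not depend on how libraries are scaled, so they bear on whether isoforms and subunits shifted against each other. Of 17 pairs listed, 16 could be formed, since Ogdh was not analysed here. In 14 of the 16, the log2 ratios of the ages did not overlap, against 81.5% of all pairs of genes tested. The exact two-sided permutation p was 0.333 for each of these 14, the smallest that 2 libraries against 2 allow, and 0.381 adjusted over the pairs. The widest shift was that of Pdp1 over Pdp2, with log2 ratios of 3.87 and 4.28 in neonates and 2.32 and 2.44 in adults, a difference of 1.69. Me1 over Me2 was at 2.21 and 2.22 in neonates and 1.10 ± 0.14 (SD, n = 2) in adults, a difference of 1.11. Pdk4 over Pdk2 was at -0.19 and -0.062 in neonates and 0.80 and 1.15 in adults, so that Pdk4 changed more than Pdk2 did. The narrowest shift among the pairs without overlap was that of Mdh1 over Mdh2, 0.046. Levels were compared between ages and not between genes, because transcript lengths were not used here.

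**Figure D3:**
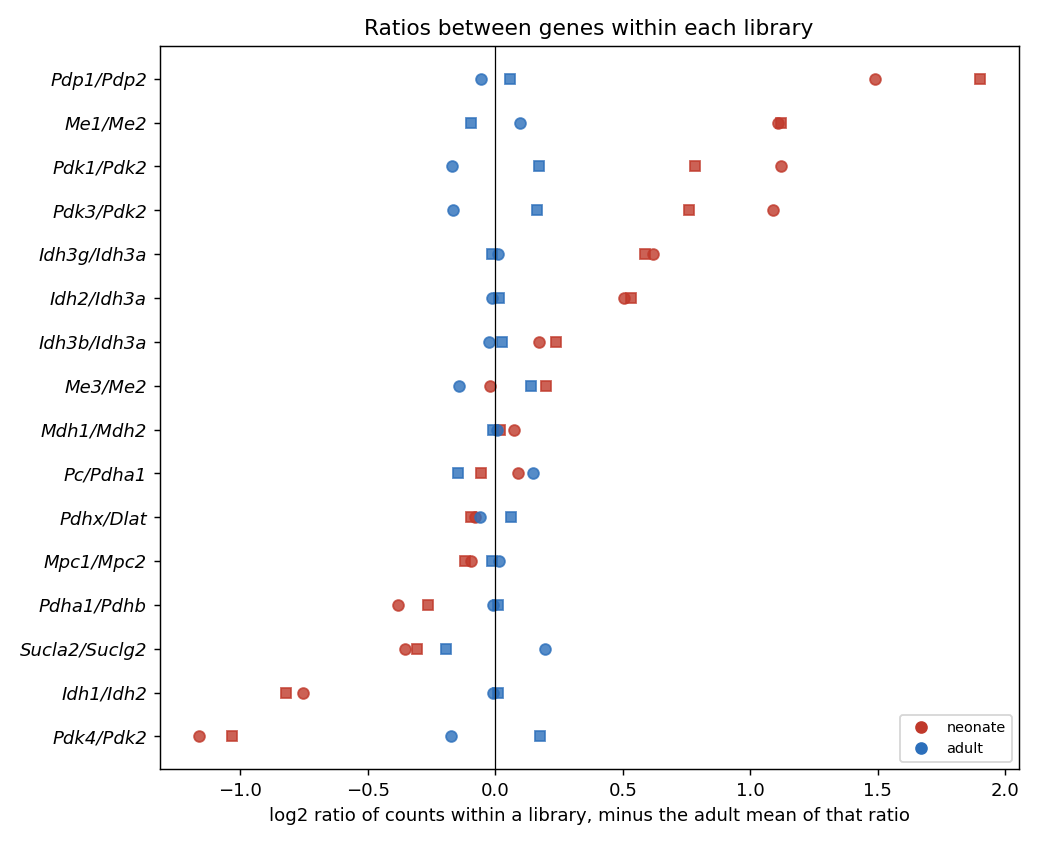
Log2 ratio of the counts of 2 genes within each library, minus the adult mean of that ratio, for 16 pairs, with neonates in red, adults in blue, replicate 1 as circles and replicate 2 as squares. Pdp1/Pdp2 and Me1/Me2 lie farthest to the right and Pdk4/Pdk2 farthest to the left, while Me3/Me2 and Pc/Pdha1 overlap between ages.

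The other genes around the cycle were described from lists, 64 genes tested in all. By the same edgeR test 16 were higher and 18 lower in neonates, where 31.2% and 31.1% of all genes tested were. These shares stand beside the count of each list below. Succinate dehydrogenase, the cycle enzyme that is also complex II, had 3 of 7 genes higher and 4 that did not pass, its assembly factors included. Its subunits Sdhb (115 and 112 CPM against 75.4 and 80.1 CPM, log2 fold change 0.55, edgeR adjusted p = 0.00033), Sdhc (0.38) and Sdhd (0.40) rose, while the flavoprotein Sdha was at -0.11 (edgeR adjusted p = 0.20). Sdhaf1 did not pass the filter. In the list for lipoate attachment and iron-sulfur delivery, which equips the dehydrogenase complexes, 5 of 9 were higher and 4 did not pass. Isca2 (log2 fold change 0.72, with fractional estimated counts), Bola3 (0.67) and Nfu1 (0.41) had the smallest adjusted p among them.

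Among the related 2-oxoacid dehydrogenases and their regulators, 4 of 8 were lower in neonates and 4 did not pass. Ppm1k, the phosphatase of the branched-chain complex, had 5.74 and 6.12 CPM in neonates and 14.2 and 16.8 CPM in adults, at -1.38 (standard error 0.17, edgeR adjusted p = 0.00016). Dbt, the core of that complex, was at -0.43 and Pdpr, given above, at -1.70. Carriers of cycle intermediates and cofactors had 1 higher and 2 lower of 7 tested. The dicarboxylate carrier Slc25a10 had 40.8 and 40.1 CPM in neonates and 22.5 and 24.1 CPM in adults, at 0.79 (standard error 0.094, edgeR adjusted p = 0.00012), and the aspartate-glutamate carriers Slc25a12 and Slc25a13 were the lower ones. Slc25a18 and Slc25a21 did not pass the filter.

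Feeds from amino acids and propionyl-CoA split, with 3 higher and 5 lower of 10 tested. The alanine transaminases went opposite ways. Gpt, the cytosolic enzyme, had 26.1 and 21.7 CPM in neonates and 7.83 and 10.2 CPM in adults, at 1.41 (standard error 0.17, edgeR adjusted p = 0.00011). Gpt2, the mitochondrial enzyme, had 1.75 and 0.919 CPM in neonates and 4.79 and 5.09 CPM in adults, at -1.89 (standard error 0.35, edgeR adjusted p = 0.0015). Got1, the cytosolic aspartate transaminase, was lower at -0.63. Among the exits of citrate, acetate and phosphoenolpyruvate, 1 of 7 was higher and 2 were lower. Acaca, which makes malonyl-CoA, had 9.24 and 10.9 CPM in neonates and 21.9 and 24.5 CPM in adults, at -1.21 (standard error 0.14, edgeR adjusted p = 0.00010). Pck2, the mitochondrial phosphoenolpyruvate carboxykinase, rose at 0.57 and its cytosolic relative Pck1, at under 5 CPM, was lower at -1.05. With library size alone, the counts over all 64 genes were 7 higher and 30 lower, where 18.7% and 43.3% of all genes tested were.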

How the data were processed

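RNA of pooled carotid bodies was measured in 2 neonatal (day 5) and 2 adult (day 21) libraries, grouped by the sample labels. The authors trimmed reads, used STAR and Salmon 1.5.2 with Rnor_6.0, and deposited estimated counts per gene, not normalized and not filtered. Totals ran from 36286191 to 39476110 per library, and between 5.02% and 6.19% of genes had fractional estimates. Nothing in the labels ties replicates to litters. With 2 libraries per age, p-values rest on the spread between these pools, moderated by that of the other genes.

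Counts were rounded. Genes annotated as other than protein-coding by symbol in a RefSeq table (GRCr8) were removed (636 of 32883), and 13843 genes that reached 1 CPM in 2 or more libraries were tested. The ages were compared by edgeR 4.0.16 (TMM, quasi-likelihood, Benjamini-Hochberg) in R 4.3.3, over all genes, without covariates. CPM are TMM-scaled. Standard errors are the log2 fold change over the square root of F, and 95% intervals use the moderated degrees of freedom. Ratios used counts plus 0.5. The test was checked on simulated data, where 66 genes were given a log2 change of 0.5, 66 of 1 and 68 of 2. It recovered 45.5%, 81.8% and 100% of them. Genes at the lowest levels were not among those changed. Of 13643 unchanged genes it called 11. In the real data 62.3% of genes tested were called, a far larger share than was changed in the simulation. These rates therefore need not hold for the comparison of the ages.

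All members were named. From each other list, up to 3 called genes with the smallest adjusted p were named. Pc, Adipoq, Sdha, Ldha and Ppargc1a were named after their values were seen. Members and lists were chosen with earlier results of these data known. Alternatives were DESeq2 1.42.0, limma-voom (limma 3.58.1), RLE factors, library size alone, TMM without mitochondrial and ribosomal genes, other filters, a replicate block and each library left out.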

Additional observations from a re-analysis of the deposited data

How the results depend on the processing

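Counts of members called kept within 1.5 times of 9 higher and 7 lower under DESeq2, limma-voom, RLE factors, TMM without mitochondrial and ribosomal genes, both filters on low counts and with all genes kept. With the replicate number as a block they were 10 higher and 7 lower. The labels give no litter or batch behind the numbers, deviations of same-numbered libraries correlated at -0.0154 across genes, and the block changed no call of a member but that of Suclg2. Leaving out a library gave 7 to 9 higher and 4 to 6 lower, 2 to 3 lower at 2-fold and 0 higher at 2-fold, a median from 0.076 to 0.11, 14 to 16 ratio pairs without overlap, and 12 to 18 higher and 15 to 21 lower genes in the pathway lists, an alternative chosen after seeing the data. The fewest lower members were found without neonate replicate 2. The share of all genes called is not given for fits without a library. These counts therefore do not show whether members lost calls more often than other genes. Ratios of the ages also separate more easily with 1 library in an age.

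With library size alone, 5 members were higher, the median turned to -0.16, and the pathway lists had 7 higher and 30 lower, by the construction of that scale, which moves all genes by about -0.25. Directions reversed there for Aco1 (-0.11), Idh3b (-0.085), Dlst (-0.13), Dld (-0.11), Mdh2 (-0.025), Pdhb (-0.13), Dlat (-0.22), Pdk1 (-0.18), Pdk3 (-0.21) and Pdp1 (-0.24), of which only Mdh2 was called on the TMM scale. Without a filter on low counts the median was 0.062, and Pdp1 reversed to -0.020. With a mean of at least 5 CPM, Dlat (-0.0097), Pdk3 (-0.0021) and Pdp1 (-0.031) reversed, and Me3 did not pass that filter. Leaving out a library reversed members near 0, with ranges from -0.0076 to 0.28 for Aco1, -0.099 to 0.022 for Idh3a, -0.029 to 0.089 for Dlat, -0.0090 to 0.081 for Pdk3 and -0.070 to 0.086 for Pdp1. The cause was not tested. Fits without a library assume that the lone library of an age varies like those of the other. The smallest change called was that of Pdha1 (-0.20), and Me3 was limited by depth, with 47 to 74 counts per library.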

Other observations

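Of the enzymes that make or use pyruvate in the cytosol, 4 were tested. In neonates 1 was higher and 1 lower, where 31.2% and 31.1% of all genes tested were, and 2 did not pass. Pkm, which makes pyruvate at the end of glycolysis, had 304 and 299 CPM in neonates and 458 and 432 CPM in adults (log2 fold change -0.56, standard error 0.082, edgeR adjusted p = 0.00038). Ldhb, the lactate dehydrogenase subunit of oxidative tissues, had 134 and 129.8 CPM in neonates and 86.8 and 83.8 CPM in adults, at 0.63 (standard error 0.074, edgeR adjusted p = 0.00011). Ldha was at 0.067 and did not pass (edgeR adjusted p = 0.51), and Ldhc did not pass the filter. By quantitative RT-PCR, a measure not made here, the study reports Ldha as increased in neonates. Pkm and Ldha have fractional estimated counts, and their levels are uncertain to that extent.

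Of the regulators of mitochondrial biogenesis, 2 of 12 tested were higher and 4 were lower in neonates, where 31.2% and 31.1% of all genes tested were. Gabpa, a subunit of the nuclear respiratory factor NRF-2, had 68.2 and 71.8 CPM in neonates and 92.2 and 96.5 CPM in adults, at -0.43 (standard error 0.081, edgeR adjusted p = 0.0015). Ppard was at -0.40, and Tfam, which packages and transcribes mitochondrial DNA, was at 0.33 (edgeR adjusted p = 0.011). The largest change of the list was that of Ppargc1a, at -1.48 (standard error 0.40, edgeR adjusted p = 0.011). Its levels were low, at 0.591 and 0.557 CPM in neonates and 1.40 and 1.81 CPM in adults. Ppargc1b, Esrrb and Ppara did not pass the filter.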
